A study of Mus musculus with 56 samples.

Results

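Period and cryptochrome genes encode the repressors of the mammalian circadian clock, and 5 of them, Per1, Per2, Per3, Cry1 and Cry2, were examined in the mouse anterior hypothalamus. They were taken by name, and all 5 were found among the 17564 genes of the deposited table, where rows are NCBI Gene IDs. RNA was sequenced from 56 female C57BL/6J mice aged 9 weeks, kept on a cycle of 12 h light and 12 h dark. For 7 days, 28 mice had food only from zeitgeber time 0 (ZT0, lights on) to ZT12 (lights off), termed day time-restricted feeding (DRF), and 28 had food only from ZT12 to ZT0, termed night time-restricted feeding (NRF). All differences are DRF minus NRF. Every 4 h from ZT0 to ZT24, 4 mice per regimen were killed, so that each value is 1 mouse and ZT24 is the same hour of the light cycle as ZT0 in other mice. There was no group with free access to food, so a difference between regimens has no unrestricted control.

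In the clock, the proteins CLOCK and BMAL1 (the product of Arntl) bind E-box sequences and switch on Per and Cry genes. PER and CRY proteins then assemble, enter the nucleus and block CLOCK and BMAL1, and the loop closes in about a day as they are phosphorylated and degraded. In the suprachiasmatic nucleus (SCN), the light-entrained pacemaker that lies in the anterior hypothalamus, Per1 and Per2 also respond to light through cAMP response elements. Per3 and the cryptochromes have D-box, E-box or RORE elements that time their transcription, and meal time is known to reset Per genes in peripheral tissues such as the liver.

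Per1 (NCBI Gene ID 18626) lies at chr11:69095108-69109965, Per2 (18627) at chr1:91415977-91459351, Per3 (18628) at chr4:150997018-151044707, Cry1 (12952) at chr10:85131700-85185054 and Cry2 (12953) at chr2:92403646-92434085 in GRCm38.p6, the build the authors used. The windows from 250 to 51 bases before a RefSeq transcription start are shown because elements of the kinds named above can lie in them. Windows were found for 4 of the 5 members, from RefSeq on GRCm38.p6, each of 200 bases, read 5′ to 3′ in the direction of transcription. Letters that match an E-box, its variant, a D-box or the core of a RORE are in capitals. The Per1 window (chr11:69098699-69098898, plus strand) lies inside the span of the gene, ahead of an internal first exon. Those of Per3 (chr4:151044716-151044915, minus strand), Cry1 (chr10:85185105-85185304, minus strand) and Cry2 (chr2:92434120-92434319, minus strand) lie outside their genes. No base of any of them overlapped a GENCODE exon.
Per1: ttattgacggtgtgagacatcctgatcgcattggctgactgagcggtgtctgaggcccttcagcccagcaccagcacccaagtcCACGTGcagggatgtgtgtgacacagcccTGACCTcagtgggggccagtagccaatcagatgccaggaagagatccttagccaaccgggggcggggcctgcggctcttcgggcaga
Per3: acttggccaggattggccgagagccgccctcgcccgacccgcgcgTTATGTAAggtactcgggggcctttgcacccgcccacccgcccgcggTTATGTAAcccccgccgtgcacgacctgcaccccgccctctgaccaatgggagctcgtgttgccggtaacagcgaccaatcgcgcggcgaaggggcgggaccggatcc
Cry1: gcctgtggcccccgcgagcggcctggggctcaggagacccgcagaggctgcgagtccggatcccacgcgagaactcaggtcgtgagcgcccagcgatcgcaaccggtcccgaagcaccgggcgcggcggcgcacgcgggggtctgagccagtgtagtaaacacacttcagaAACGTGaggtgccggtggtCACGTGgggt
Cry2: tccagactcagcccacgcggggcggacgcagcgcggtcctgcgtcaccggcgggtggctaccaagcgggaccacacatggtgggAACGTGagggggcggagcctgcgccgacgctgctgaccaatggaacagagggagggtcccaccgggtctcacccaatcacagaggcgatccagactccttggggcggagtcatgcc

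Both strands of these windows were searched for 6 motifs, and positions are counted back from the transcription start as negative numbers. The E-box CACGTG began at -166 in Per1 and at -60 in Cry1, and 4.34% of all 32851 RefSeq windows of this length held it. Its variant CACGTT, read as AACGTG on these strands, began at -79 in Cry1 and at -166 in Cry2, against 3.09% of all windows. The D-box TTATGTAA, bound by DBP, TEF and HLF and by their antagonist NFIL3, occurred at -205 and again at -158 in Per3, whereas 0.658% of all windows held any. AGGTCA, the core of the RORE bound by REV-ERB and ROR receptors, was found on the opposite strand at -137 in Per1 (11.4% of all windows). Only these 6 letters were searched and not the bases beside them, so the match is not a full RORE. The full cAMP response element TGACGTCA was in none of the 4 windows (0.828% of all), and its core TGACG began at -246 in Per1 and was on the opposite strand at -209 in Cry2 (12.7% of all windows). A second RefSeq start of Per1 had a window (chr11:69099902-69100101) with only this core, at -132. These letters describe the windows and not the binding of any factor.

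All 5 members resolved into whole reads in all 56 mice when the authors' transformation was undone, within 0.000571 of a read, so their values are given as CPM (normalized reads scaled by library). Read numbers per mouse ran from 1394 to 2602 for Per1, from 948 to 1698 for Per2, from 1433 to 2644 for Per3, from 619 to 965 for Cry1 and from 2640 to 3919 for Cry2, with normalized libraries of 29591266 to 34493344 reads. Counting error alone was thus at most 4.02% of a value, for Cry1, and at most 1.95% for Cry2. The DRF ZT16 libraries of replicates 3 and 4 stood apart from all others. Their expression deviated with GC content by 0.37 and 0.54 log2 units per 10 percentage points, against at most 0.17 elsewhere, and results that rest on them are given with and without them. The dissected tissue held all 9 SCN markers (summed 133 to 397 CPM in DRF and 170 to 400 in NRF), all 6 paraventricular and supraoptic markers (375 to 942 and 421 to 934 CPM) and all 6 preoptic markers (287 to 415 and 255 to 438 CPM). Avp, with a median of 169 CPM, is on both of the first lists and makes up most of the SCN sum. Slc32a1, with a median of 247 CPM, makes up most of the preoptic sum, and its list was set for the anterior hypothalamus as well. The sum thus hides the spread of the rarer markers, such as Lhx8, which ran from 1.65 to 26.9 CPM over the 56 mice. Fewer cells of a type cannot be told apart from less RNA per cell in any value below.

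To compare genes, CPM were divided by the merged length of all annotated exons of a gene. This length was 5631 bases for Per1, 5856 for Per2, 9608 for Per3, 3340 for Cry1 and 6320 for Cry2. The transcripts present may be shorter, and the order between genes depends on it. Per kilobase of this length, Cry2 was the most abundant member, with 16.1 ± 0.96 CPM per kilobase in DRF and 15.0 ± 0.88 in NRF (SD, n = 28). It exceeded each of the other 4 in all 56 mice. Per1 came next with 11.4 ± 1.48 in DRF and 10.4 ± 1.83 in NRF, above Cry1 in 55 of 56 mice and above Per2 and Per3 in all. Cry1 followed at 7.53 ± 0.77 and 7.75 ± 0.78. Per2 was above Cry1 in 9 of 56 mice and Per3 in 10 of 56. Per2 (6.70 ± 1.02 and 6.53 ± 0.99) and Per3 (6.88 ± 0.86 and 6.30 ± 0.97) did not differ beyond their spread, and Per2 was the higher in 30 of 56 mice. All levels that follow are in CPM of the same gene, listed for replicates 1 to 4 of each group, which are mice with no order among them.

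Per1, which answers both the clock and acute stimuli, was higher in DRF at lights on, and its mice separated again late in the dark phase. At ZT0, Per1 was at 47.3, 44.7, 58.96 and 57.7 CPM in NRF and at 71.4, 73.2, 73.4 and 62.99 CPM in DRF. Here all 4 DRF mice were above all 4 NRF mice. At ZT4, Per1 was at 48.2, 49.3, 51.6 and 52.5 CPM in NRF and at 57.4, 46.7, 55.4 and 61.7 CPM in DRF. At ZT8, Per1 was at 57.4, 60.3, 65.9 and 67.9 CPM in NRF and at 58.4, 50.4, 68.6 and 68.4 CPM in DRF. The groups overlapped at both times. At ZT12, Per1 was at 83.4, 77.8, 69.1 and 74.3 CPM in NRF and at 64.3, 62.9, 76.7 and 80.3 CPM in DRF. At ZT16, Per1 was at 60.6, 59.8, 71.2 and 70.7 CPM in NRF and at 63.3, 56.2, 67.6 and 75.4 CPM in DRF. They overlapped again, and NRF reached its highest mean at ZT12 (76.2 ± 6.05, SD, n = 4), 1.51 times its lowest at ZT4 (50.4 ± 1.99). At ZT20, Per1 was at 52.7, 46.8, 53.8 and 52.3 CPM in NRF and at 60.1, 60.5, 65.5 and 63.4 CPM in DRF. At ZT24, Per1 was at 53.2, 56.1, 46.8 and 51.7 CPM in NRF and at 51, 72.1, 63.6 and 72.4 CPM in DRF. At ZT20 all DRF mice were above all NRF mice, and at ZT24 1 DRF mouse was below the highest NRF mice and 3 were above all of them. The highest DRF mean was also at ZT12 (71.1 ± 8.74) and the lowest at ZT4 (55.3 ± 6.32), a ratio of 1.29.

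Per2, a core Period gene that needs CRY partners to repress, had nearly the same profile in the 2 regimens. At ZT0, Per2 was at 33.9, 31.01, 36.6 and 32.7 CPM in NRF and at 39.4, 35.7, 38.6 and 31.6 CPM in DRF. At ZT4, Per2 was at 30.1, 29.4, 31.2 and 31.4 CPM in NRF and at 35.4, 33.1, 34.4 and 34.96 CPM in DRF. The groups overlapped at ZT0, and at ZT4 the lowest DRF mouse was above the highest NRF mouse. At ZT8, Per2 was at 36.2, 35.5, 39.7 and 37.4 CPM in NRF and at 31.6, 33.1, 41.3 and 39.4 CPM in DRF. At ZT12, Per2 was at 46, 45.8, 42.6 and 48.6 CPM in NRF and at 47.9, 43.4, 48.96 and 53.01 CPM in DRF. At ZT16, Per2 was at 48.5, 48.3, 44 and 41.1 CPM in NRF and at 47, 44.3, 45.3 and 47.4 CPM in DRF. DRF and NRF mice overlapped at these 3 times, and both regimens were highest at ZT12, with 48.3 ± 3.94 in DRF and 45.7 ± 2.45 in NRF. At ZT20, Per2 was at 42.8, 39.99, 37.4 and 39.1 CPM in NRF and at 35.2, 36.5, 39.2 and 38.6 CPM in DRF. At ZT24, Per2 was at 36.03, 35.4, 35.9 and 34.2 CPM in NRF and at 32.1, 40.1, 31.3 and 38.9 CPM in DRF. Both groups overlapped here too. From the lowest mean, at ZT4 in both regimens, to the highest, Per2 spanned 1.4 times in DRF and 1.5 times in NRF.

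Per3, a Period gene that is not needed for the core oscillation, separated most clearly in the ZT0 mice and not in those of ZT24, the same hour of the light cycle. At ZT0, Per3 was at 48.2, 46, 50.7 and 50.04 CPM in NRF and at 63.8, 63.04, 71.9 and 64.3 CPM in DRF. The lowest DRF mouse was above the highest NRF mouse. At ZT4, Per3 was at 51.3, 52.9, 51.4 and 53.5 CPM in NRF and at 65.6, 56.96, 60.5 and 56.4 CPM in DRF. At ZT8, Per3 was at 62.5, 59.2, 73.6 and 64.01 CPM in NRF and at 64.8, 68.7, 76.1 and 74.4 CPM in DRF. DRF mice were again above all NRF mice at ZT4, but not at ZT8. At ZT12, Per3 was at 70.1, 77.5, 77.2 and 79.7 CPM in NRF and at 80.4, 76.3, 76.97 and 71.7 CPM in DRF. At ZT16, Per3 was at 66.98, 63.97, 68.7 and 65.9 CPM in NRF and at 71.7, 72.6, 73.7 and 76.7 CPM in DRF. The groups overlapped at ZT12, the highest mean of both regimens (76.3 ± 3.58 in DRF and 76.1 ± 4.19 in NRF), and at ZT16 all DRF mice were above all NRF mice. At ZT20, Per3 was at 62.2, 59.5, 61.1 and 58.7 CPM in NRF and at 68.9, 55.5, 61.5 and 61.7 CPM in DRF. At ZT24, Per3 was at 54.6, 56.8, 54.4 and 53.9 CPM in NRF and at 55.9, 54.8, 53.6 and 53.3 CPM in DRF. The groups overlapped at both. The lowest mean was at ZT24 in DRF (54.4 ± 1.2) and at ZT0 in NRF (48.7 ± 2.12), and the highest was 1.4 and 1.56 times as large.

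Cry1, the cryptochrome that represses most strongly late in the cycle, had the fewest reads and a shallow profile. At ZT0, Cry1 was at 25.1, 28.7, 26.9 and 23.99 CPM in NRF and at 30.03, 27.6, 27.8 and 24.7 CPM in DRF. At ZT4, Cry1 was at 19.5, 27.7, 21.6 and 20.9 CPM in NRF and at 24.9, 23.9, 23.1 and 22.1 CPM in DRF. One NRF mouse stood high at ZT4, and the groups overlapped at both times. At ZT8, Cry1 was at 25.1, 23.9, 26.4 and 23.8 CPM in NRF and at 20.7, 23.6, 23.4 and 22.4 CPM in DRF. At ZT12, Cry1 was at 26.7, 27.8, 31.3 and 27.4 CPM in NRF and at 28.3, 25.7, 26.5 and 29.6 CPM in DRF. At ZT8 all DRF mice were below all NRF mice, and at ZT12 they overlapped. At ZT16, Cry1 was at 26.96, 28.5, 28.9 and 27.4 CPM in NRF and at 26.7, 27.1, 22.2 and 20.1 CPM in DRF. The 2 low DRF values at ZT16, 22.2 and 20.1 CPM, belonged to the libraries that stood apart. At ZT20, Cry1 was at 26.6, 27.6, 27.5 and 26.4 CPM in NRF and at 23.6, 26.3, 24.6 and 28.03 CPM in DRF. At ZT24, Cry1 was at 23.4, 25.2, 23.99 and 25.6 CPM in NRF and at 24.5, 26.8, 23.8 and 26.3 CPM in DRF. The groups overlapped at both. The highest NRF mean was at ZT12 (28.3 ± 2.08) and the lowest at ZT4 (22.5 ± 3.63), a ratio of 1.26, and in DRF they were at ZT0 (27.5 ± 2.2) and ZT8 (22.5 ± 1.31), a ratio of 1.22.

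Cry2, the more abundant cryptochrome, had the shallowest profile of the members in both regimens. At ZT0, Cry2 was at 84.1, 89.6, 90.1 and 91.1 CPM in NRF and at 105, 107, 102 and 103 CPM in DRF. All 4 DRF mice were above all 4 NRF mice. At ZT4, Cry2 was at 87.9, 98.2, 93.3 and 92.1 CPM in NRF and at 98.7, 88.6, 93.9 and 97.8 CPM in DRF. At ZT8, Cry2 was at 97.97, 101, 105 and 101 CPM in NRF and at 108, 99.7, 103 and 103 CPM in DRF. At ZT12, Cry2 was at 103, 101, 99.9 and 99.1 CPM in NRF and at 101, 99.2, 107 and 115 CPM in DRF. The groups overlapped at these 3 times. At ZT16, Cry2 was at 98.03, 95.99, 103 and 101 CPM in NRF and at 89.7, 94.1, 105 and 114 CPM in DRF. The DRF mice were the most scattered here, and the 2 high values were those of the libraries that stood apart. At ZT20, Cry2 was at 91.5, 89.5, 93.4 and 87.8 CPM in NRF and at 104, 101, 102 and 101 CPM in DRF. At ZT24, Cry2 was at 90.7, 96.1, 90.6 and 91.6 CPM in NRF and at 96.7, 104, 99.4 and 107 CPM in DRF. At both times every DRF mouse was above every NRF mouse. The highest mean was 1.14 times the lowest in NRF (101 ± 2.91 at ZT8 and 88.7 ± 3.12 at ZT0) and 1.12 times in DRF (106 ± 7.21 at ZT12 and 94.7 ± 4.57 at ZT4).

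**Figure D1:**
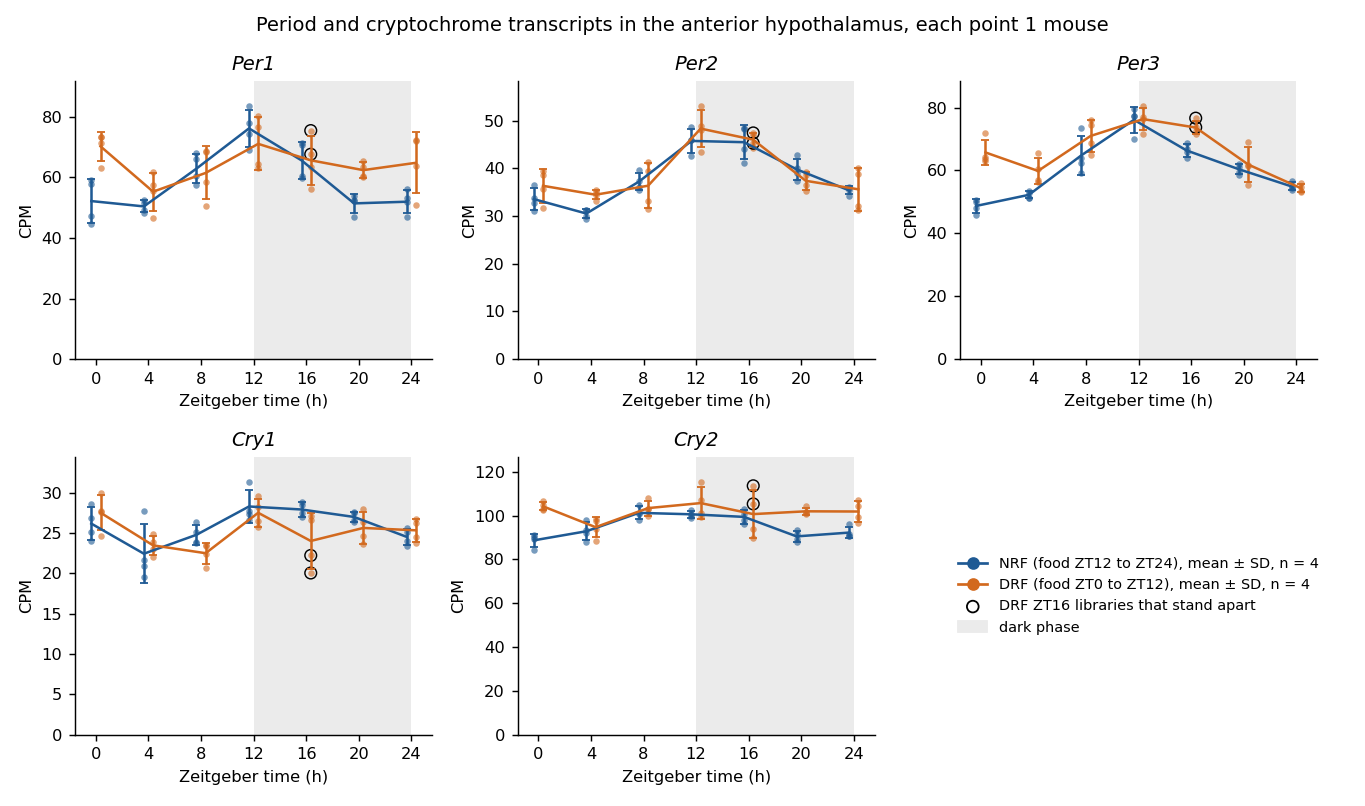
CPM of the 5 members (y axes from 0) against zeitgeber time in hours (x axis), with a point per mouse and lines through the means ± SD of 4 mice, NRF in blue and DRF in orange, the dark phase shaded and the DRF ZT16 libraries that stand apart circled. Per2 runs together in both regimens, whereas Per1, Per3 and Cry2 start higher in DRF at ZT0.

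The groups of mice did not overlap for 3 of 5 members at ZT0, 2 at ZT4, 1 at ZT8, 0 at ZT12, 1 at ZT16, 2 at ZT20 and 1 at ZT24. Over all 16062 genes this held for 14.5%, 14.1%, 9.7%, 6.34%, 7.94%, 8.21% and 7.73%.

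Whether each member had a daily rhythm was tested with JTK_CYCLE and a Lomb-Scargle periodogram, both of which the package MetaCycle offers. The settings used in the study were not given in the sources used here, so its calls need not be the same. Both were run on the deposited values of 16245 genes for periods of 20 to 28 h, and their p-values were combined by Fisher's method. That method takes the tests as independent. Both tests used the same values, so the combined p-values can be too small. The p-value of JTK_CYCLE was also multiplied by the number of periods and phases tried, which can make it too large. Lomb-Scargle alone called 0 genes in either regimen. All 5 members were called in NRF at a Benjamini-Hochberg adjusted p-value under 0.05, where 27.5% of all genes were called, and 2 of 5 in DRF, where 0.806% were. In NRF the cryptochromes were called with larger adjusted p-values (0.0014 for Cry1 and 0.0010 for Cry2) than the Period genes, of which Per1 had the largest (7.8e-05). In DRF, Per3 was called (adjusted p = 0.0022) and Per2 only just (0.0497), whereas Per1, Cry1 and Cry2 had adjusted p-values of 1. The DRF calls were fragile. Without the 2 libraries that stood apart the adjusted p was 0.41 for Per2 and 0.018 for Per3, and leaving out any replicate number raised that of Per3 to between 0.090 and 0.21. With the 24-h cosine in limma on log2(CPM + 1) Per2 and Per3 were called in DRF at adjusted p-values of 2.4e-06 and 5.5e-06, and 4.03% of all genes were.

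A test that needs no wave shape, limma's F test over the 7 time points, called Per2, Per3 and Cry1 in DRF (adjusted p = 1.8e-06, 3.1e-08 and 0.016) and all 5 members in NRF (the largest 0.0067, for Cry1), against 32.3% and 29.7% of all genes. Per1 and Cry2 in DRF had adjusted p-values of 0.058 and 0.11. Without the 2 libraries that stood apart, Cry2 was called in DRF as well (0.0055), and Per1 was not (0.073), with 14.8% of all genes called. The calls of Per1, Per2 and Per3 in NRF and of Per2 and Per3 in DRF held whichever replicate number was left out. That of Cry1 in DRF ended without replicate 1, 3 or 4 (0.064, 0.21 and 0.12), that of Cry1 in NRF without replicate 1 or 3 (0.084 and 0.22) and that of Cry2 in NRF without replicate 3 (0.11). Terms of 12 h, added to the 24-h cosine, were called in DRF for Per1, Per2, Cry1 and Cry2 (adjusted p = 0.036, 0.019, 0.018 and 0.042), where 22.3% of all genes were called. In NRF limma called them for no member, the lowest unadjusted p being 0.052 (Per1), and for 3 of 16062 genes (0.0187%). Without the 2 libraries, the 12-h terms in DRF were called for Per1 and Cry2 (0.030 and 0.0012) and no longer for Per2 and Cry1 (0.051 and 0.057), against 6.26% of all genes. None of these 4 calls held whichever replicate number was left out. The highest adjusted p was 0.25 for Per1 and 0.26 for Cry2, both without replicate 2, 0.16 for Per2 without replicate 1 and 0.16 for Cry1 without replicate 3, and over all genes the calls fell from 3587 to 615 without replicate 3.

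The fitted 24-h amplitude, the log2 distance from the midline of the cosine to its peak, was smaller in DRF than in NRF for all 5 members and for 61.9% of all 16062 genes. It was 0.08 ± 0.05 against 0.27 ± 0.04 for Per1, 0.23 ± 0.03 against 0.27 ± 0.03 for Per2 and 0.19 ± 0.03 against 0.26 ± 0.03 for Per3 (SE, n = 28 mice per regimen). For Cry1 it was 0.06 ± 0.04 against 0.14 ± 0.04, and for Cry2 0.025 ± 0.019 against 0.093 ± 0.018. No single amplitude difference passed the threshold over all genes (adjusted p from 0.16 for Per1 to 0.78 for Per2), and 0.984% of all genes did. Its 95% confidence interval ran from -0.31 to -0.058 for Per1 and from -0.12 to -0.015 for Cry2, and those of Per2, Per3 and Cry1 included 0. In NRF, Cry1 had its fitted peak at ZT16.0 ± 0.88 and Cry2 at ZT11.3 ± 0.83. Peak times in DRF are not well set for Per1, Cry1 and Cry2, whose DRF cosine was not called. For Per2 and Per3 the peak in DRF was earlier by 0.55 h (95% confidence interval 1.92 h earlier to 0.83 h later) and by 0.45 h (1.92 h earlier to 1.01 h later). Neither passed the threshold (adjusted p = 0.49 and 0.60 over the 373 genes with a 24-h cosine in both regimens), while 64.6% of those genes did.

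The 24-h cosine and sine terms were then compared between the regimens in 1 limma fit over all 56 mice. Per1 was the only member called (adjusted p = 0.011), and 11.2% of all 16062 genes were. The adjusted p-values were 0.60 for Per2, 0.31 for Per3, 0.17 for Cry1 and 0.080 for Cry2. Per1 kept its call without the 2 libraries that stood apart, but it lost it without replicate 1, 2 or 3 (0.061, 0.074 and 0.059) and not without replicate 4 (0.031). Cry2 passed the threshold without ZT16 (0.035) and with each library's trends with GC content, length and level removed (0.034).

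At ZT0, the start of the meal in DRF and the end of it in NRF, 3 of 5 members were higher in DRF by limma's contrasts: Per1 by 0.43 ± 0.10 on the log2 scale (SE, adjusted p = 0.0083), Per3 by 0.42 ± 0.06 (3.6e-06) and Cry2 by 0.23 ± 0.05 (0.0020). Of all genes, 4.65% were called there and 2.42% were higher in DRF, and 14.5% had groups of mice that did not overlap. In CPM these were means of 70.2 ± 4.90 against 52.2 ± 7.20 for Per1, 65.7 ± 4.11 against 48.7 ± 2.12 for Per3 and 104 ± 1.88 against 88.7 ± 3.12 for Cry2. Per2 differed by 0.11 ± 0.07 and Cry1 by 0.07 ± 0.08, neither past the threshold (0.46 and 0.70). Per3 was called whichever of the 4 replicate numbers was left out, Per1 was not without replicate 1, 2 or 3 (0.16, 0.065 and 0.062), and Cry2 was not without replicate 1 (0.052). At ZT4, Per3 alone was called, higher in DRF by 0.19 ± 0.06 (adjusted p = 0.041), where 3.97% of all genes were called. That call was lost whichever replicate number was left out (0.080 to 0.27) and with quantile normalization. At ZT8, ZT12, ZT20 and ZT24 no member was called by limma, where 0.149%, 1.54%, 1.18% and 0.311% of all genes were. At an unadjusted p under 0.05, 1 member passed at ZT8 (Per3), 0 at ZT12 and 2 each at ZT20 and ZT24 (Per1 and Cry2). Of all 16062 genes, 2144 passed so at ZT8, 2674 at ZT12, 2197 at ZT20 and 1336 at ZT24. At ZT20, Cry2 was higher in DRF by 0.17 ± 0.05 with an adjusted p of 0.060, and it passed without the 2 libraries that stood apart (0.013).

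At ZT16, Cry1 was called lower in DRF by limma, by a log2 difference of -0.22 ± 0.08 (adjusted p = 0.038), where 19.8% of all genes were called. The call rests on the libraries that stood apart. Their mean was 21.1 CPM, and that of the other 2 DRF mice was 26.9 CPM, beside 27.9 ± 0.88 in NRF (SD, n = 4). Without them the adjusted p was 0.88, and 0.193% of all genes were called. Per3 at ZT16 had an adjusted p of 0.053, with a difference of 0.15 ± 0.06 and no overlap between the groups of mice, as in 7.94% of all genes.

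**Figure D2:**
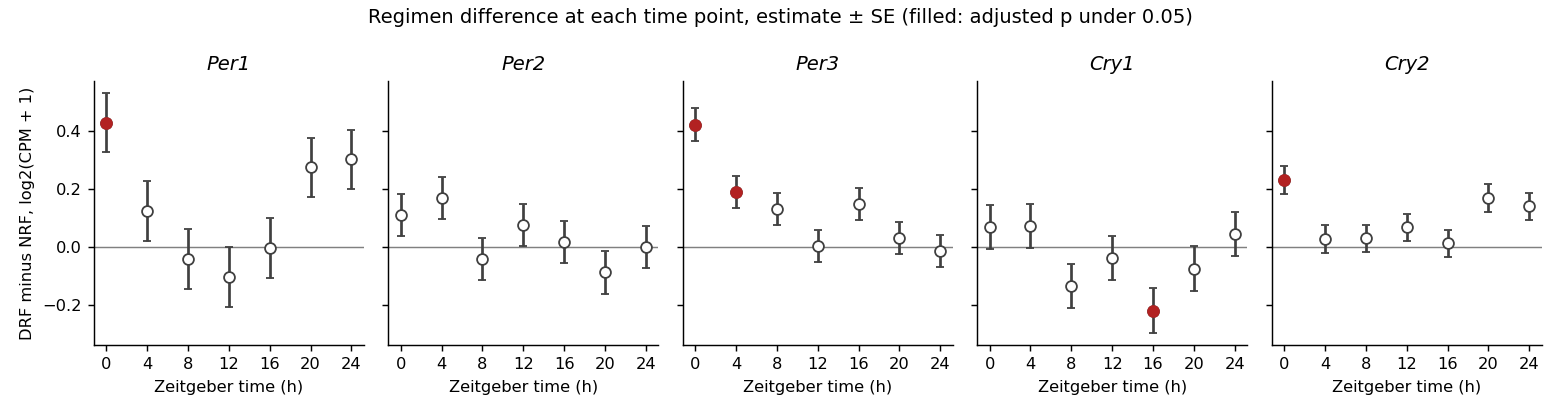
DRF minus NRF difference in log2(CPM + 1) of each member (y axis, estimate ± SE from limma, 4 mice per regimen) at each zeitgeber time in hours (x axis), filled red where the adjusted p-value is under 0.05. Per1, Per3 and Cry2 are called at ZT0, Per3 at ZT4 and Cry1 at ZT16.

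Averaged over the 7 time points, Per1, Per3 and Cry2 were higher in DRF by 0.14 ± 0.04, 0.13 ± 0.02 and 0.10 ± 0.02 on the log2 scale (adjusted p = 0.016, 0.00018 and 0.00085), where 10.4% of all genes were called and 5.57% were higher. Per2 differed by 0.035 ± 0.027 and Cry1 by -0.04 ± 0.03 (adjusted p = 0.44 and 0.40). The hour of lights on enters this average as both ZT0 and ZT24, so it weighs more than any other hour. The group mean of Per1 was higher in DRF at ZT0, ZT4, ZT20 and ZT24. It was lower in DRF at ZT8 and ZT12 and nearly equal at ZT16. The group mean of Cry2 was higher in DRF at every time point, and that of Per3 at all but ZT24. Without the 2 libraries that stood apart the same 3 members were called (0.038, 0.00042 and 0.0012). The call of Per1 ended without ZT24 (0.058) and without replicate 3 or 4 (0.14 and 0.096). Markers of other cells moved between the regimens as well. Both blood markers were higher in DRF (Hba-a1 by 0.57, adjusted p = 0.0096, and Hbb-bs by 0.52, adjusted p = 0.020), with summed levels of 155 to 1629 CPM in DRF and 134 to 360 in NRF. The oligodendrocyte marker Mog was lower by a log2 difference of -0.15 (adjusted p = 0.047). Of 3 thalamus markers 1 was lower (Tcf7l2, summed 38.8 to 175 and 41.3 to 264 CPM), and of 4 striatum markers 1 was higher (Rgs9, summed 132 to 536 and 112 to 294 CPM). Of the SCN markers, 1 of 9 was lower in DRF (Rgs16) and the others were not called. Of choroid plexus, pituitary, cortex and endothelial markers none of those tested was called, and of the pituitary markers Prl and Gh had a median of 0. The part of these markers in the mean level was not tested.

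ZT24 and ZT0 are the same hour of the light cycle, sampled in other mice. For Per3, the change from ZT0 to ZT24 was -0.27 ± 0.06 in DRF (adjusted p = 0.023), from 65.7 ± 4.11 to 54.4 ± 1.2 CPM, where 0.511% of all genes were called. Leaving out a replicate number gave 0.037 to 0.26. In NRF the change was 0.17 ± 0.06 and did not pass (adjusted p = 0.088), from 48.7 ± 2.12 to 54.9 ± 1.26 CPM, where 1.92% of all genes were called. The difference between those changes was -0.44 ± 0.08 (adjusted p = 0.023), and by limma Per3 was the only gene of 16062 called for it (0.00623%, with 922 genes at an unadjusted p under 0.05). This contrast was added after the data were seen. It was called without the 2 libraries that stood apart (0.029), and not when any 1 replicate number was left out (0.077 and above) or with quantile normalization (0.068). The other 4 members were called for none of the 3 contrasts. At ZT24 the regimen difference of Per3 was thus -0.014 ± 0.056, against 0.42 at ZT0.

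When the regimens were compared at the same hour from food access, with DRF set against NRF mice of the opposite light phase, Per2 and Per3 differed more than at the same ZT. Over the 7 contrasts, the root mean square difference of Per2 was 0.36 at the same hour from food and 0.09 at the same ZT, a ratio of 4.06 that exceeded that of 99.97% of all genes tested. For Per3 the values were 0.34 and 0.19, for Per1 0.27 and 0.23, for Cry1 0.16 and 0.11, and for Cry2 0.12 and 0.12, with medians of 0.12 and 0.11 over all genes. Without the contrasts that use DRF ZT16, the values were 0.32 and 0.10 for Per2, 0.31 and 0.20 for Per3, 0.17 and 0.08 for Cry1, 0.12 and 0.13 for Cry2, and 0.25 in both for Per1. Per2 was called by limma in 5 of the 7 food-matched contrasts and in 0 of the 7 at the same ZT. At an unadjusted p under 0.05, Per2 passed in 1 of those at the same ZT, ZT4, where 2868 of 16062 genes did. By the adjusted p, Per3 was called in 5 and 2. Per1 was called in 2 and 1, Cry1 in 1 and 1, and Cry2 in 2 and 1. These contrasts share the same mice and are a description of distance. A 24-h rhythm with the same peak time in both regimens by itself gives a large food-matched distance. The ratio of Per2 thus largely restates its amplitudes and peak times and is no separate test of light against food. Of the 16062 genes, 373 had a 24-h cosine in both regimens.

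At the end of the meal, DRF at ZT12 against NRF at ZT24, 4 of 5 members were higher in DRF: Per1 by 0.44 ± 0.10 (adjusted p = 0.017), Per2 by 0.44 ± 0.07 (0.00029), Per3 by 0.47 ± 0.06 (7.8e-07) and Cry2 by 0.19 ± 0.05 (0.027), where 1.25% of all genes were called and 0.797% were higher. Per2 and Per3 kept these calls without each replicate number, whereas Per1 lost it without replicate 1, 3 or 4 (0.053, 0.33 and 0.31) and so did Cry2 (0.070, 0.32 and 0.46). At 4 h after it, DRF at ZT16 against NRF at ZT4, Per2 was higher by 0.58 ± 0.07 (4.7e-07) and Per3 by 0.49 ± 0.06 (4.7e-08), with 20.8% of all genes called and 9.48% higher. Both were also called without the libraries that stood apart (6.2e-05 and 2.1e-05). Per1 was called there with all libraries (0.0094) and not without them (0.22), where Cry1 was (0.041). At the start of the meal, DRF at ZT0 against NRF at ZT12, Per2 was lower by -0.33 ± 0.07 (0.0081) and Per3 by -0.21 ± 0.06 (0.029), with 2.96% called and 1.62% lower. After 4 h of food, DRF at ZT4 against NRF at ZT16, Per2 was lower by -0.39 ± 0.07 (0.0026), with 0.486% called. After 8 h of food, DRF at ZT8 against NRF at ZT20, Per3 and Cry2 were higher by 0.23 ± 0.06 (0.011) and 0.19 ± 0.05 (0.012), and Cry1 was lower by -0.25 ± 0.08 (0.047), with 4.14% called. DRF at ZT24 against NRF at ZT12 gave -0.36 ± 0.07 for Per2 (0.0019) and -0.48 ± 0.06 for Per3 (3.0e-07), with 4.59% called and 2.11% lower. In these 4 contrasts, leaving out a replicate number ended each call at least once (up to 0.27), except that of Per3 at DRF ZT24 against NRF ZT12 (at most 0.00077). For DRF at ZT20 against NRF at ZT8, no member was called by limma (adjusted p of 0.46 and above, unadjusted p of 0.25 and above), while 12.9% of all genes were.

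**Figure D3:**
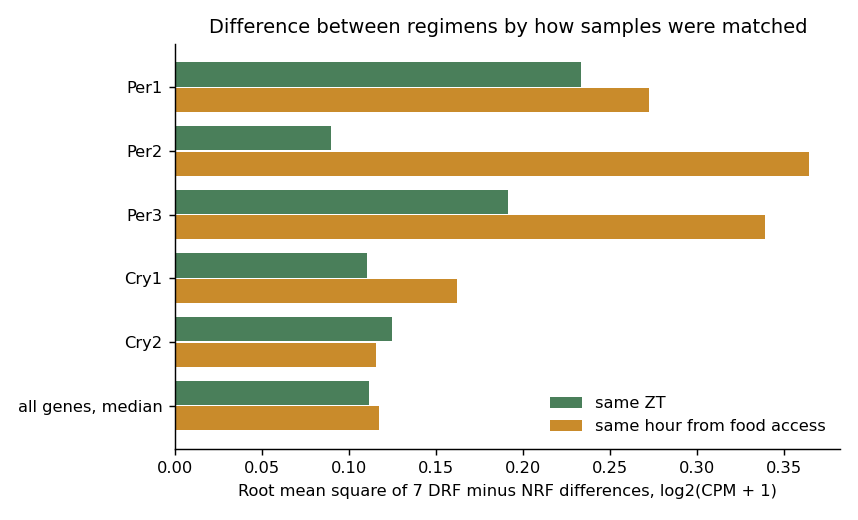
Root mean square of the 7 DRF minus NRF differences in log2(CPM + 1) (x axis, from 0) for each member and for the median of all genes tested (y axis), in green with mice matched by ZT and in amber with mice matched by hours from food access. The bars of Per2 are 0.09 and 0.36, those of Cry2 0.12 and 0.12.

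With all libraries, mice of the same regimen and time differed more in DRF than in NRF for all 5 members, as they did for the median gene. The SD of log2(CPM + 1), pooled over time points, was 0.17 in DRF and 0.12 in NRF for Per1, 0.12 and 0.08 for Per2, 0.09 and 0.07 for Per3, 0.11 and 0.11 for Cry1 and 0.08 and 0.04 for Cry2. The ratio was 1.39, 1.60, 1.25, 1.08 and 1.81, with a median of 1.27 over all genes. It exceeded that of 62.6%, 78.4%, 47.9%, 28.9% and 86.7% of all genes, so Per3 and Cry1 were below the median. Without the 2 libraries that stood apart, the ratio was 0.84 for Cry1 and 1.34 for Cry2, whereas Per2 stayed at 1.68 and the median of all genes was 1.12.

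Deviations of single mice from their group mean showed which members moved together apart from time and regimen. In DRF, Per1 and Per2 moved together (Pearson r = 0.75, adjusted permutation p = 0.0030, and Spearman rho = 0.82, adjusted permutation p = 0.00060, over 28 mice). In NRF they did not pass (r = 0.12, adjusted permutation p = 0.70, and rho = 0.15, adjusted permutation p = 0.67). The difference between the regimens was not tested. Per1 and Cry2 moved together in both regimens, with r = 0.70 in DRF (adjusted permutation p = 0.0048) and 0.56 in NRF (0.033), and rho = 0.74 and 0.65 (0.0063 and 0.0066). Leaving out the 2 mice farthest from the median of Per1, r was 0.72 for Per1 and Per2 in DRF and 0.70 and 0.63 for Per1 and Cry2. Without the DRF ZT16 libraries that stood apart, r in DRF was 0.77 and 0.68. With each library's trends with GC content, length and level removed, r was 0.72 for Per1 and Per2 in DRF. For Per1 and Cry2 it fell to 0.46 in DRF and 0.34 in NRF. In that setting 3 other pairs had a larger r than Per1 and Cry2. It was 0.80 for Cry1 and Cry2 in NRF, 0.62 for Per2 and Cry1 in DRF and 0.50 for Per3 and Cry1 in NRF. The remaining pairs had at most 0.39. Which pairs stand out thus depends on the library trends. The permutations were run with the trends left in. In all, 30 relations were tested with 100000 two-sided permutations within groups, 10 pairs of members and 5 members with the summed SCN markers in each regimen. No other relation passed, and r with the summed SCN markers, largely Avp, was between -0.19 and 0.51.

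**Figure D4:**
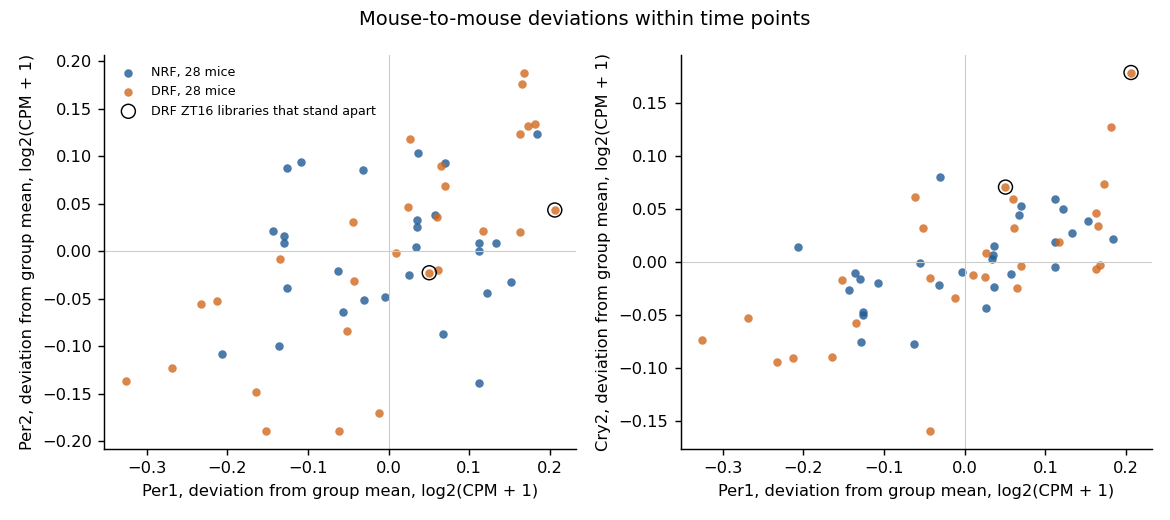
Deviation of each mouse from the mean of its regimen and time point in log2(CPM + 1), for Per1 (x axes) against Per2 (left, y axis) and Cry2 (right, y axis), with 28 NRF mice in blue, 28 DRF mice in orange and the DRF ZT16 libraries that stand apart circled. Per1 and Per2 rise together in DRF (r = 0.75), and Per1 and Cry2 in both regimens (r = 0.70 and 0.56).

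Genes that act with the members were taken as 4 lists, described by counts. Over all genes, 27.5% were called rhythmic in NRF and 0.806% in DRF, and the rhythm differed for 11.2%, so a count near these shares is not particular to a list. Of 18 clock partners, 12 were called rhythmic in NRF and 3 in DRF (6 at an unadjusted p under 0.05, 1 by JTK_CYCLE alone and 6 by the 24-h cosine in limma), and the rhythm differed for 8 (6 without the libraries that stood apart). Their median amplitude was 0.19 in NRF and 0.11 in DRF, against 0.07 and 0.06 over all genes and 0.26 and 0.08 over the 5 members. Dbp, a D-box activator, had amplitudes of 0.73 and 0.40 (rhythm difference, adjusted p = 0.00066), and Nr1d1, which encodes REV-ERBα, a repressor of Arntl, 0.48 and 0.29 (0.0022). The repressors Ciart and Bhlhe41 had 0.46 and 0.16 (0.0033) and 0.19 and 0.12 (0.0029). For the activators of the members, Arntl had 0.23 and 0.11 (0.043), and Clock had 0.18 and 0.09 without passing (0.11). The test of the rhythm difference takes amplitude and peak time together. Fitted peaks in NRF and DRF were ZT10.5 ± 0.26 and ZT9.7 ± 0.47 for Dbp and ZT8.7 ± 0.26 and ZT7.5 ± 0.41 for Nr1d1 (SE). They were ZT11.0 ± 0.43 and ZT12.0 ± 1.27 for Ciart, ZT12.1 ± 0.51 and ZT8.2 ± 0.76 for Bhlhe41 and ZT23.6 ± 0.45 and ZT23.1 ± 0.89 for Arntl. Nr1d1 and Dbp were called rhythmic in both regimens, as was Tef, which encodes another D-box activator and was named after its values were seen.

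Of 27 genes for kinases, phosphatases and turnover of PER and CRY, 26 were tested, 12 were called rhythmic in NRF and 0 in DRF by JTK_CYCLE and Lomb-Scargle (0 also at an unadjusted p under 0.05 and by JTK_CYCLE alone, 1 by the 24-h cosine in limma), and the rhythm differed for 3. These were Ppp1cc, a catalytic subunit of protein phosphatase 1 (amplitudes of 0.15 in NRF and 0.07 in DRF, adjusted p = 0.0050), Csnk2a1, a subunit of casein kinase 2 (0.11 and 0.02, 0.030), and the deubiquitinase Usp7 (0.07 and 0.04, 0.031). Their fitted peaks in NRF and DRF were ZT18.4 ± 0.66 and ZT11.2 ± 1.56, ZT19.5 ± 0.75 and ZT4.5 ± 3.88, and ZT19.7 ± 1.01 and ZT5.3 ± 1.55 (SE). Peaks in DRF are not well set for genes not called rhythmic there. The casein kinase 1 genes that phosphorylate PER had amplitudes of 0.02 and 0.02 for Csnk1d and 0.04 and 0.05 for Csnk1e, with adjusted p-values of 0.59 and 0.95 for the difference. Fbxl21, which encodes an F-box protein that acts on CRY stability, had 0.10 and 0.12, and did not pass (0.15). Of 20 co-repressors of the PER complex, 9 were called rhythmic in NRF and 0 in DRF by the same test, at an unadjusted p under 0.05 and by the cosine, and the rhythm differed for 3, Sfpq (0.22 and 0.02, adjusted p = 0.0078), Cbx1 (0.11 and 0.06, 0.017) and Hdac3 (0.14 and 0.04, 0.019). Their fitted peaks were ZT19.3 ± 0.60 and ZT4.5 ± 6.47, ZT20.4 ± 0.70 and ZT15.2 ± 1.27, and ZT8.3 ± 0.48 and ZT6.8 ± 1.60. Of 20 genes of light and cAMP input to Per transcription, 6 were called rhythmic in NRF and 0 in DRF, again also at an unadjusted p under 0.05 and by the cosine, and the rhythm differed for 1, Creb1 (0.27 and 0.07, 0.024), which encodes a factor that binds the cAMP response element. The fitted peaks of Creb1 were ZT19.6 ± 0.75 and ZT3.3 ± 2.84. At an unadjusted p under 0.05, 697 of all 16245 genes and 2 of 5 members were rhythmic in DRF. Averaged over time, 6 of the 20 input genes were higher in DRF and 0 lower, against 3 of 5 members and 5.57% of all genes.

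**Figure D5:**
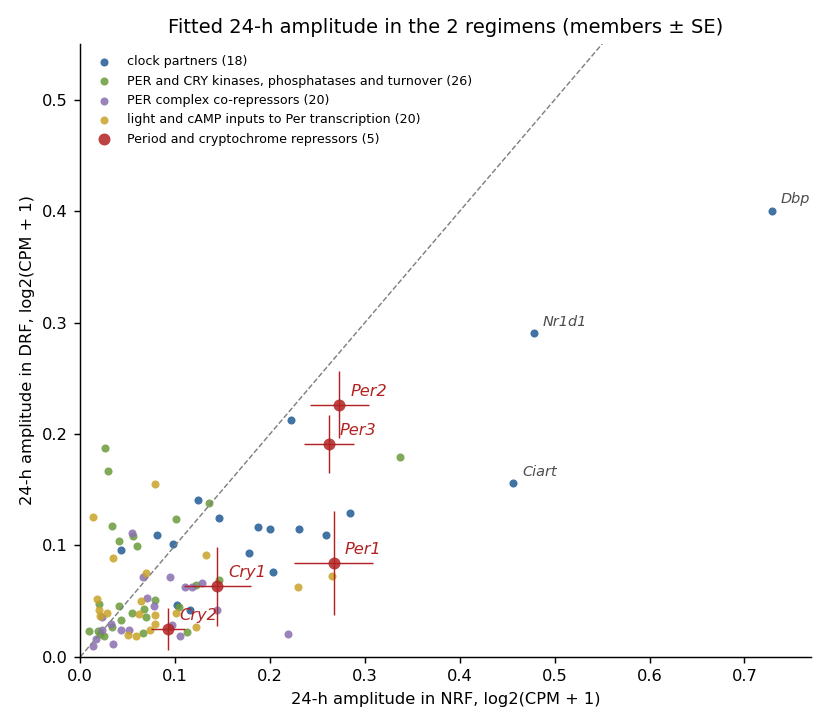
Fitted 24-h amplitude in log2(CPM + 1) in DRF (y axis) against NRF (x axis), with a point per gene of the 4 lists and the 5 members in red with SE, and a dashed line of equal amplitude. All 5 members lie below the line, as do 61.9% of all genes tested.

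The genes whose 14 group means ran most like those of a member were listed among 13853 genes. For Per1 they were Mertk, Zfp61 and Zbtb16 (Pearson r = 0.90, 0.90 and 0.88), for Per2 Kcnn2, Mknk2 and Fmo2 (0.92, 0.90 and 0.90), and for Per3 Fzd2, Nfic and Sfrp5 (0.91, 0.89 and 0.86). For Cry1 they were Dnttip2, Zfp830 and Rsrc2 (0.83, 0.83 and 0.82), and for Cry2 Abl1, Ccsap and Mbd1 (0.92, 0.91 and 0.87). Among the members, r over the group means was largest between Per1 and Cry2 (0.87) and between Per2 and Per3 (0.82), and smallest between the cryptochromes (0.18). All group means share libraries, and these values are a description over 14 points.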

How the data were processed

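Polyadenylated RNA of 56 anterior hypothalami was sequenced as paired reads, 1 library per mouse, 4 mice per regimen and time. The authors mapped reads to GRCm38.p6 with HISAT2, placed them on coding transcripts with Bowtie2, counted with RSEM and normalized by TMM in edgeR. The deposited values, named TPM, are a score: the log2 of normalized CPM plus 1, over the length of the gene, with each mouse scaled to nearly the same total. They are not proportional to reads and are compressed for abundant genes. This was undone with exon-union lengths for 17339 of 17564 genes, of which 15399 gave whole reads (within 0.05 of a read in at least 90% of mice). Strand was not stated, so overlapping and antisense reads cannot be separated.

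JTK_CYCLE and Lomb-Scargle p-values, written anew since MetaCycle was not installed, were combined by Fisher's method on the deposited values of genes at 1 or more in at least 80% of mice. All other tests used limma 3.58.1 in R 4.3.3 or a 24-h cosine with delta-method errors, on log2(CPM + 1) of 16062 genes. P-values were adjusted by Benjamini-Hochberg over all genes, with a threshold of 0.05. Python 3.11.15, numpy 2.4.6, pandas 2.3.3, scipy 1.17.1 and matplotlib 3.10.9 were used. The rhythm and limma steps were tested on simulated data. These had no trends of a library with GC content, so they cannot show how the tests act on the libraries that stood apart.

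All 5 members were described. From each list, genes past the threshold for the rhythm difference were named, at most 4, with set clock and kinase genes and Fbxl21, and the 3 genes most like each member. Members and lists were chosen with earlier results of these data known. Leaving out the DRF ZT16 libraries that stood apart, the removal of library trends, the difference between the ZT24 minus ZT0 changes and the correlations of single mice were added after seeing the data. Some items are not reported here. Counting errors cover counting only. Replicate numbers did not pair the mice.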

Additional observations from a re-analysis of the deposited data

Results flagged for a closer look

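Per3 in DRF at ZT0 had 1 mouse at 71.9 CPM while the other 3 were at 63.0 to 64.3, a gap of 0.848 of the range which is above Dixon's critical value for 4 samples. It was the only 1 of 70 groups (5 members, 14 groups each) with such a gap, and chance gives about 1 in 20. Without that replicate number Per3 was still called higher in DRF at ZT0 by limma (adjusted p = 0.0018).

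The 24-h rhythm of Per1 differed between DRF and NRF by the test of the difference itself (limma, adjusted p = 0.0111). The change of Per3 from ZT0 to ZT24 differed between the regimens by -0.44 on the log2 scale (limma, adjusted p = 0.023), falling in DRF.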

How the results depend on the processing

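All p-values here are adjusted, and the causes of changes were not tested. Rhythm in DRF for Per2 gave 0.303 with JTK_CYCLE alone, 1 with Lomb-Scargle alone, 0.0533 without the filter, 1 without ZT16, 0.407 without the libraries that stood apart and 0.224 to 1 without a replicate number. For Per3 it gave 1 with Lomb-Scargle alone, 0.125 without ZT16, 0.118 without ZT24 and 0.0899 to 0.212 without a replicate number. Genes called in DRF (131) numbered 61 with JTK_CYCLE alone, 0 with Lomb-Scargle alone (211 at an unadjusted p under 0.05), 75 without ZT16, 49 without ZT24, 648 with the cosine in limma, 637 with the replicate block added and 23 to 28 without a replicate number. In NRF, Lomb-Scargle alone gave 0.0642 for Per1, 0.0576 for Per2 and Per3, 0.159 for Cry1, 0.154 for Cry2 and 0 genes (3281 unadjusted), against 4467, with 2936 without ZT24 and 2074 to 3240 without a replicate number. Without one, Cry1 in NRF had 0.00587 to 0.0906 and Cry2 0.00745 to 0.0545. The rhythm difference had 0.0313 to 0.0735 for Per1 without a replicate number, 0.0348 for Cry2 without ZT16 and 0.0342 with library trends removed, and 1190 genes without ZT24 and 430 to 1571 without a replicate number, against 1800. Members called at ZT0 (3) were 1 to 3 without a replicate number. At ZT4 (1) they were 0 with quantile normalization, without ZT24, with library trends removed and with any 1 replicate number left out. At ZT16 (1) they were 0 on the log2 of deposited values, without ZT24 and without the libraries that stood apart, 2 with the replicate block and 0 to 2 without a replicate number. At ZT20 (0) there was 1 without those libraries and 1 with trends removed. The mean level of Per1 had 0.0584 without ZT24 and 0.0123 to 0.140 without a replicate number, with 2 to 3 members called. Members called for 12-h terms in DRF (4) were 2 on the log2 of deposited values, 0 without ZT16, 2 without the libraries that stood apart and 1 to 2 without a replicate number. For the time effect they were 5 in DRF (3) with trends removed, and 3 to 5 in NRF (5) without a replicate number. On the log2 of deposited values they were 1 at DRF ZT0 minus NRF ZT12 (2; also 1 with quantile normalization), 2 at DRF ZT12 minus NRF ZT24 (4), and 0 and 1 for ZT24 minus ZT0 in DRF (1) and NRF (0). Without a replicate number they were 0 to 1, 2 to 4, 0 to 1 (DRF ZT4 minus NRF ZT16, 1), 0 to 2 (DRF ZT8 minus NRF ZT20, 3), 1 to 2 (DRF ZT24 minus NRF ZT12, 2) and 0 to 1 (DRF ZT24 minus ZT0). The difference of the ZT24 minus ZT0 changes (1) fell to 0 with quantile normalization, without ZT16, with trends removed and with any 1 replicate number left out. The direction turned in 3 cases, none of them called: the Per3 peak shift with quantile normalization (0.00455 h, 0.995), and DRF ZT16 minus NRF ZT4 for Cry1 without replicate 1 (-0.017, 0.917; 0.216 to 0.917 without a replicate number) and Cry2 without the libraries that stood apart (-0.014, 0.895). Same-numbered libraries did not deviate together (median r = 0.0051, from -0.53 to 0.53 over 364 pairs), and 15 of 56 correlated best with their own number, so the block is not a pairing. The counting error of the members was at most 4.02%, and whether depth limited small differences was not tested.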
